A study of Mus musculus with 16 samples.

Results

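The genes described here are 10 regulators of the G1 phase of the cell cycle: the D cyclins Ccnd1, Ccnd2 and Ccnd3, their kinases Cdk4 and Cdk6, the E cyclin Ccne1, the Cip/Kip inhibitors Cdkn1a (p21), Cdkn1b (p27) and Cdkn1c (p57), and the INK4 inhibitor Cdkn2b (p15). They were read in basal cells of the limbal and of the corneal epithelium of wild-type mice. All probe sets annotated to 1 of these symbols were taken, which gave 27 of the 45037 probe sets of the array other than controls. Of these, 20 passed the filter on low signal and were tested, and they covered 9 of the 10 genes. The single probe set of Cdkn1c did not pass. For each mouse, 300 cells per site were taken by laser capture, and their RNA was amplified and hybridised to 1 array per capture, 16 arrays from 8 mice in all. The titles carry C or L, read as corneal and limbal, and a number, read as the mouse. Strain, age and sex are not given in the labels. The comparison asks which transcripts differ between limbal and corneal basal cells of the same animals.

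A cell that leaves quiescence makes D cyclins in response to growth factors. These bind Cdk4 or Cdk6, the complexes start to phosphorylate the retinoblastoma protein, and E2F factors are released. E2F activity raises cyclin E, which drives entry into S phase together with Cdk2. INK4 proteins block Cdk4 and Cdk6, and Cip/Kip proteins chiefly block the Cdk2 complexes. In the corneal epithelium the stem cells are thought to lie in the basal layer of the limbus and to divide slowly, while basal cells of the cornea include the faster dividing transit amplifying cells. Much of this control acts on protein stability and localisation, which an mRNA array does not measure.

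Each array held 1 signal per probe set, and the arrays had nearly the same trimmed mean, so the signals were taken as already scaled. Values below are either signals in these units or differences of log2(signal + 89.4), limbal minus corneal, where 1 unit is a doubling and the constant makes differences of dim probe sets smaller. The scans fell on 3 days. Day 1 held the arrays of mice 1 and 2, day 2 those of mice 3, 4 and 5, and day 3 those of mice 6, 7 and 8. The median correlation between arrays was 0.48, 0.24 and 0.81 within these days. At a common trimmed mean, the 99th percentile of the signals ran from 5171 to 10207 on day 1. It ran from 2443 to 4907.5 on day 2 and from 14916 to 18165 on day 3. The range of signals thus differed between days, and its part in the day means below was not tested. Krt12, the keratin that marks corneal epithelium, lay above the 99.7th percentile of the signals on 15 arrays. On the corneal array of mouse 5 it was at 948, with the basal keratin Krt5 at 195, against 7942 for Krt5 on the limbal array of that mouse. Mean differences of G1 genes that lean on mouse 5 are therefore given with and without it. The other basal markers Krt14 and Trp63 differed by 0.83 ± 0.41 (SE) and -1.42 ± 0.41, which limma did not call (adjusted p = 0.77 and 0.29). Each array reads a whole capture, so fewer cells that express a gene and less RNA per cell cannot be told apart.

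None of the G1 genes differed between limbal and corneal cells at an adjusted p under 0.05 in limma. Of 9 tested genes, each read from its brightest probe set, 0 were called, where 0.133% of all 13570 tested genes were, 0.125% in the limbal and 0.00737% in the corneal direction. At an unadjusted p under 0.05 in limma there were 2, Ccnd1 (lower in limbal cells) and Cdk6 (higher), against 6.71% of all genes, and 2.62% of all genes were lower at that level. With no replicate block in limma 0 of the 9 genes reached that level, against 431 of all 13570 genes. The unadjusted p was then 0.19 for Ccnd1 and 0.076 for Cdk6 in limma. With the mouse as a random block only Cdk6 of the 9 reached that level, against 887 of all 13570 genes. The unadjusted p of Ccnd1 was 0.11 in that limma fit. Of the 20 tested probe sets 0 were called, against 0.0851% of all, and 4 had an unadjusted p under 0.05, against 6.46%. By mean difference 5 of the 9 genes lay below 0, as did 49.1% of all genes. Their median difference was -0.20, against 0.01 over all tested genes. The 95% intervals of the 9 genes reached between 0.80 and 0.99 to either side of the mean, and no interval lay wholly within -1 to 1. For each of them a doubling in at least 1 direction thus lay within the interval, so a missing call does not show equal levels. The largest unadjusted p among the called probe sets of the whole array was 3.8e-05 in limma.

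**Figure D1:**
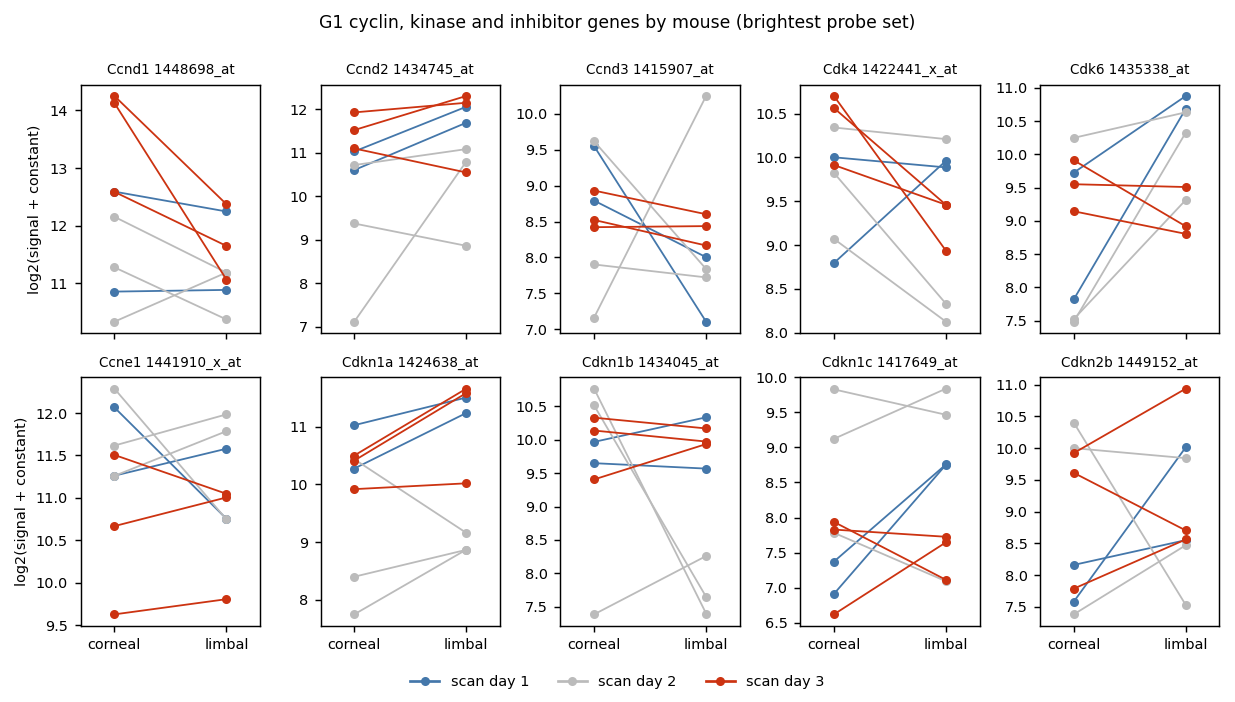
Log2(signal + constant) of the 10 genes on corneal and limbal arrays, 1 line per mouse, coloured by scan day, on the brightest probe set of each gene. Ccnd1 is lower on the limbal array in the 3 mice of scan day 3, while Cdk6 is higher in limbal arrays of the 5 mice of days 1 and 2 only. The probe set of Cdkn1c was below the filter.

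Ccnd1, the cyclin D1 gene and a target of mitogen and Wnt signalling in many epithelia, had lower mean signals in limbal than in corneal captures on all 3 of its probe sets. On the brightest, 1448698_at, the signals in limbal arrays ran from 1235 to 5211 with a median of 2240. In corneal arrays they ran from 1200 to 19418 with a median of 5265. The ranges overlapped over all arrays, and the limbal array was lower in 6 of 8 mice. In mouse 6 the signal was 2053 in the limbal and 17828 in the corneal capture. In mouse 7 these were 5211 and 19418, and in mouse 8 they were 3120 and 6062. On scan day 3 the limbal and corneal arrays of Ccnd1 thus did not overlap, a pattern shared by 5.32% of all genes in that direction, while 18.1% of all genes were lower in the limbal array of each mouse of that day. In mouse 1 the pair was nearly equal, at 1801 and 1763, and in mouse 5 the limbal signal was higher, at 2242 against 1200.

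The mean difference of Ccnd1 was -0.90 ± 0.44 (SE), or 1.87-fold, with a 95% interval from -1.79 to -0.01. In limma its adjusted p was 0.77 and its unadjusted p 0.047. Within scan days 1, 2 and 3 the mean differences were -0.16, -0.34 and -1.96. Whether the scan days differed was tested with an interaction term, which did not call Ccnd1 (adjusted p = 0.89). That term called 0.0111% of all probe sets, and 5.92% had an unadjusted p under 0.05. Fitted on day 3 alone, the difference was -1.96 ± 0.40 with an adjusted p of 0.31. Without mouse 5 it was -1.15, and without mouse 6 it was -0.59 with an unadjusted p of 0.20 in limma.

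The other probe sets of Ccnd1 gave differences of like size. On 1417419_at the limbal signals ran from 311 to 3203 with a median of 1297, and the corneal signals from 1065 to 4029 with a median of 2300. The difference was -0.82 ± 0.40, lower in 6 of 8 mice. On 1417420_at the limbal signals ran from 182 to 1603 with a median of 1068, and the corneal signals from 79.2 to 4921 with a median of 2031. The difference there was -0.89 ± 0.41, lower in 7 of 8 mice. All 3 probe sets were lower in limbal arrays in 5 mice, all were higher in mouse 1, and they disagreed in mice 3 and 5. Each had an unadjusted p under 0.05 in limma (0.047, 0.045 and 0.036) and an adjusted p of 0.75 or more. Among the 1281 genes with 3 tested probe sets, Ccnd1 was the only one, or 0.0781%, with all 3 lower in limbal cells at that unadjusted level. In either direction 4 of these genes, or 0.312%, had all 3 of 1 sign at that level. The counts were made after the values of Ccnd1 were seen, and probe sets of 1 gene read the same RNA. They are thus about agreement between probe sets and leave the spread between mice as it is.

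**Figure D2:**
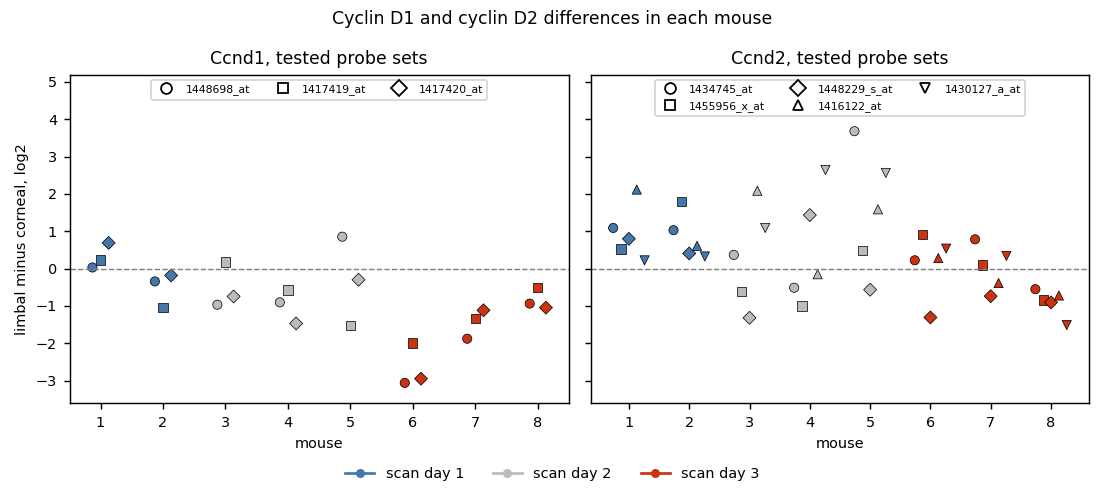
Limbal minus corneal log2 difference of each tested probe set of Ccnd1 (left) and Ccnd2 (right) in each of 8 mice, with a symbol per probe set and a colour per scan day. All Ccnd1 points of mice 6 to 8 lie below 0. The 5 Ccnd2 probe sets spread to both sides of 0 in 5 of the 8 mice.

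Markers of other tissues and of the corneal epithelium also had unequal mean signals in these captures. Of the 8 tested corneal epithelial markers 3 were higher and 5 lower on average in limbal captures. Single markers went their own way, with Krt14 higher in limbal arrays in 7 of 8 mice and Pax6 lower in 8. The mean difference over the 8 markers was 0.42 and -0.32 in mice 1 and 2. It was -2.13, -1.01 and 3.28 in mice 3, 4 and 5, and -1.58, -0.45 and -0.53 in mice 6, 7 and 8. Ccnd1 on 1448698_at differed by 0.03 and -0.34, by -0.97, -0.90 and 0.85, and by -3.06, -1.88 and -0.94 in the same mice. Its sign was thus that of the mean of the corneal epithelial markers in 8 of 8 mice, as for 0.929% of all other genes, a count made after the values were seen. On 1417419_at the signs matched in 6 mice and on 1417420_at in 7. They matched in 7 mice for the brightest probe sets of Cdk4 and Cdkn1b, in 5 for Cdk6 and Cdkn2b, in 4 for Ccnd2 and Ccnd3, and in 3 for Ccne1 and Cdkn1a. The summed signal of the corneal epithelial markers ran from 103160 to 389391 in limbal and from 4573 to 705003 in corneal arrays. The lowest corneal sum was that of mouse 5, where Krt12 was at 948. The same array enters the marker difference of 3.28 in that mouse. All 10 stromal markers were higher on average in limbal captures, with a summed signal from 5797 to 280019 in limbal and from 2651 to 29615 in corneal arrays. The stromal mean difference was 1.82 and 2.83 in mice 1 and 2, 0.90, 0.90 and 0.20 in mice 3, 4 and 5, and 3.50, 2.24 and -0.13 in mice 6, 7 and 8. Of the 7 tested conjunctival markers 6 were higher, with a summed signal from 3481 to 63837 in limbal and from 1606 to 14886 in corneal arrays. The 8 immune markers were all higher on average, with sums from 3347 to 116540 and from 1811 to 12214. Endothelial, muscle and melanocyte markers were higher on average for 2 of 4, 5 of 6 and 3 of 3 tested genes. Limma called 1 conjunctival marker (Krt4), 2 stromal (Col1a2 and Vim) and 2 immune (H2-Aa and Cpa3) as higher in limbal captures. It called none of the other marker lists, and 0.125% of all genes in that direction. No tested marker was listed at 0 on any array. The part of these differences in the results for Ccnd1 and the other G1 genes was not tested.

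Ccnd2, the cyclin D2 gene, which shares the role of Ccnd1 and can stand in for it in many cells, had a higher mean in limbal cells on 4 of its 5 tested probe sets and was not called on any. On the brightest, 1434745_at, the limbal signals ran from 377 to 4991 with a median of 2658, and the corneal signals from 49.8 to 3820 with a median of 1804. The ranges overlapped, and the limbal array was higher in 6 of 8 mice. The difference was 0.76 ± 0.43 (adjusted p = 0.81, interval -0.11 to 1.63). The lowest corneal signal was that of mouse 5, where the difference was 3.68, and without mouse 5 the mean was 0.35. Within scan days 1, 2 and 3 the mean was 1.06, 1.18 and 0.15. Probe set 1448229_s_at went the other way, with -0.28 ± 0.41, and the remaining tested ones ranged from 0.17 to 0.77. The 2 probe sets below the filter differed by 0.08 and -0.35.

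Ccnd3, the cyclin D3 gene, was dim on this array. Its tested probe set, 1415907_at, lay above the 75th percentile of the array's signals on 1 of 16 arrays and below the array's median on 6. The limbal signals ran from 48.2 to 1129 with a median of 183, and the corneal signals from 53.8 to 697 with a median of 316. The limbal array was lower in 6 of 8 mice, and the difference was -0.35 ± 0.49 (adjusted p = 0.96). It was 3.09 in mouse 4, and without that mouse the mean was -0.84 (adjusted p = 0.81 in limma). Without mouse 2 it was -0.05 and without mouse 3 it was -0.14. The untested probe sets differed by -0.30 and -0.03.

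The kinase genes gave different answers on different probe sets. For Cdk4, the brightest probe set 1422441_x_at ran from 190 to 1094 in limbal arrays with a median of 615, and from 355 to 1576 in corneal arrays with a median of 905. The limbal signal was the lower of the pair in 7 of 8 mice, and 8.76% of all genes kept 1 sign in at least 7. The difference was -0.61 ± 0.41 (adjusted p = 0.87). Within scan days the means were 0.53, -0.86 and -1.11, and on day 3 the limbal signals, 400 to 615, lay below the corneal ones, 875 to 1576, as for 5.32% of all genes. The other probe sets of Cdk4 differed by -0.09 ± 0.47 and 0.37 ± 0.47. Probe sets whose name ends in _x_at can also bind related transcripts.

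For Cdk6, the probe set 1435338_at had the smallest p among the brightest probe sets of the 9 genes. Its limbal signals ran from 357 to 1792 with a median of 917, and its corneal signals from 89.5 to 1126 with a median of 568. The difference was 0.96 ± 0.45, with an interval from 0.05 to 1.87 (adjusted p = 0.76, unadjusted p = 0.040 in limma). Without mouse 5 it was 0.69 (adjusted p = 0.81 in limma). On this probe set the sign went with the scan day, and the share of all genes that split in this way was not counted. The limbal signal was higher in all 5 mice of days 1 and 2, with mean differences of 2.01 and 1.67, and lower in the 3 mice of day 3, with -0.46. The interaction with scan day had an adjusted p of 0.84 and an unadjusted p of 0.040 in limma for 1435338_at. Of all probe sets 5.92% had an unadjusted interaction p under 0.05. The second tested probe set of Cdk6, 1455287_at, pointed the other way, with -0.53 ± 0.45 and a lower limbal signal in 7 of 8 mice. Its means were 0.86, -1.57 and -0.42 on days 1, 2 and 3. No direction of Cdk6 is thus shown.

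Ccne1, the cyclin E1 gene, had tested probe sets of opposite sign and no call. The probe set 1441910_x_at lay above the 75th percentile of the signals on all 16 arrays. Its limbal signals ran from 806 to 3961 with a median of 1997, and its corneal signals from 701 to 4909 with a median of 2592. The difference was -0.20 ± 0.40 (interval -1.01 to 0.62, adjusted p = 0.97). Probe set 1416492_at gave 0.14 ± 0.44. The annotation gives no accession for 1441910_x_at, and a name of this kind marks possible binding of related transcripts.

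**Figure D3:**
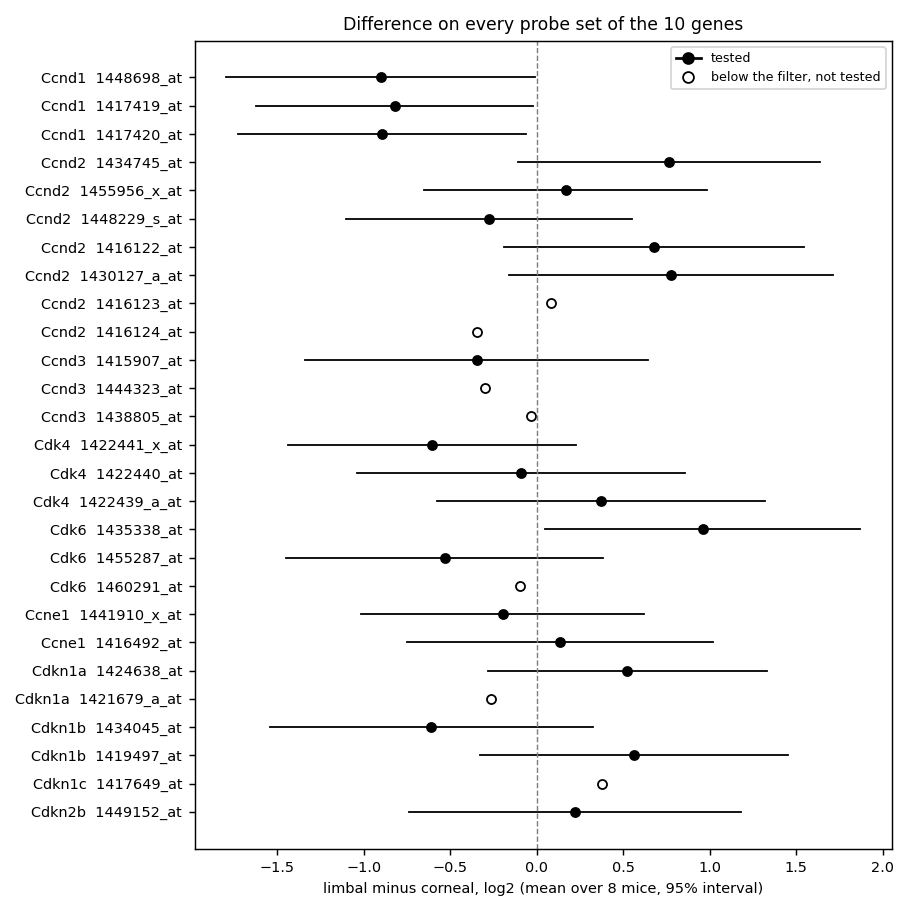
Mean limbal minus corneal log2 difference over 8 mice for all 27 probe sets of the 10 genes. Filled points are tested probe sets with their 95% interval, and open points lay below the filter. The 3 intervals of Ccnd1 and that of Cdk6 1435338_at leave out 0 before adjustment, and none of the 20 tested probe sets was called after it.

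Cdkn1a encodes p21, the inhibitor induced by p53, and its probe sets had mean differences of opposite sign. On 1424638_at the limbal signals ran from 378 to 3141 with a median of 1635, and the corneal signals from 126 to 1994 with a median of 1211. The ranges overlapped. The limbal array was higher in 7 of 8 mice, where 8.76% of all genes kept 1 sign in at least 7, and the difference was 0.52 ± 0.40 (interval -0.28 to 1.33, adjusted p = 0.89). Mouse 3, at 483 in the limbal and 1297 in the corneal array, was the exception. By scan day the means were 0.72 on day 1, 0.10 on day 2 and 0.81 on day 3. The second probe set, 1421679_a_at, was below the array's median on 12 of 16 arrays and was not tested. Its mean difference was -0.27 ± 0.38 (SD over mice), with the limbal array lower in 5 of 8 mice.

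Cdkn1b, the p27 gene, had tested probe sets of opposite sign. On 1434045_at the difference was -0.61 ± 0.46 (adjusted p = 0.89). Its limbal signals ran from 79.5 to 1203 with a median of 780, and its corneal signals from 78.0 to 1650 with a median of 975. The low limbal signals were those of the mice of scan day 2, at 79.5 to 217, while on day 3 they were 890 to 1062. Mice 3 and 4 differed by -3.36 and -2.86, and without scan day 2 the mean was 0.10, while without mouse 5 it was -0.82. On 1419497_at the difference was 0.56 ± 0.44, higher in 6 mice.

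Cdkn1c, the imprinted p57 gene, and Cdkn2b, the p15 gene that responds to TGF-beta, gave no direction either. The probe set of Cdkn1c was below the array's median on 11 of 16 arrays. Its signals ran from 46.9 to 827 in limbal and from 8.80 to 820 in corneal arrays. The limbal signal was higher in 4 of 8 mice, with a mean difference of 0.37 ± 1.01 (SD over mice). For Cdkn2b the limbal signals ran from 95.2 to 1872 with a median of 308, and the corneal signals from 77.2 to 1263 with a median of 444. Its mean difference was 0.22 ± 0.47 (SE), with -2.87 in mouse 4 and 2.43 in mouse 2 (adjusted p = 0.98).

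Of the 6 genes with more than 1 tested probe set, Ccnd1 was the 1 whose mean differences all had the same sign. Over the whole array, 53.8% of genes with 2 tested probe sets and 30.0% of those with 3 had 1 sign throughout. The SD over mice of the difference ran from 0.82 for Ccne1 to 1.63 for Ccnd3 among the brightest probe sets, against a median of 1.24 over all tested probe sets.

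The differences of the D cyclin genes Ccnd1 and Ccnd2 lay apart in each mouse, a comparison chosen after the values were seen and given with no test. On the brightest probe sets the limbal minus corneal difference of Ccnd2 exceeded that of Ccnd1 in 8 of 8 mice. The excess was 1.06 and 1.37 in mice 1 and 2, then 1.34, 0.39 and 2.83 in mice 3 to 5, and 3.29, 2.66 and 0.39 in mice 6 to 8, with a mean of 1.67 ± 1.12 (SD, n = 8). Of the 15 combinations of tested probe sets of both genes, 4 were positive in all 8 mice, and the lowest count was 5 of 8. All 15 had a positive mean, from 0.55 to 1.68, which follows from the probe set means given above and adds no support. Of the 36 pairs of tested G1 genes on their brightest probe sets, 2 had the same order in all mice. These were Ccnd2 over Ccnd1 and Cdk6 over Ccnd1 (1.86 ± 0.84, SD, n = 8). The second tested probe set of Cdk6, 1455287_at, did not keep this order. In mice 4 and 5 it differed by -1.46 and -2.99, below Ccnd1 on 1448698_at at -0.90 and 0.85, while in the other mice it lay above. Among all other tested genes, 5.05% had a difference above that of Ccnd1 in all 8 mice.

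The further genes of the G1 to S pathway, a list of 42 that holds the Rb family, E2F factors, their partners, other inhibitors and ubiquitin ligase subunits, gave no call either. Among 38 tested genes the mean was above 0 for 16 and below 0 for 22, and the median was -0.10. None was called by limma, and 3 had an unadjusted p under 0.05. Over all tested genes 49.1% lay below 0 and 6.71% had such a p, so neither count stands far from the background. The smallest p belonged to E2f6, a repressive E2F, with -1.21 ± 0.47 (adjusted p = 0.63). Its mean was -3.15 on scan day 2, against 0.58 on day 1 and -0.46 on day 3. E2f7, a further repressive E2F that is itself an E2F target, differed by -1.15 ± 0.45 (adjusted p = 0.64) and had mean differences of -1.19, -0.60 and -1.68 on days 1, 2 and 3. Skp2, the ligase subunit that marks p27 for degradation, differed by 0.97 ± 0.44, higher in 6 of 8 mice (adjusted p = 0.74). None of these passed the threshold.

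**Figure D4:**
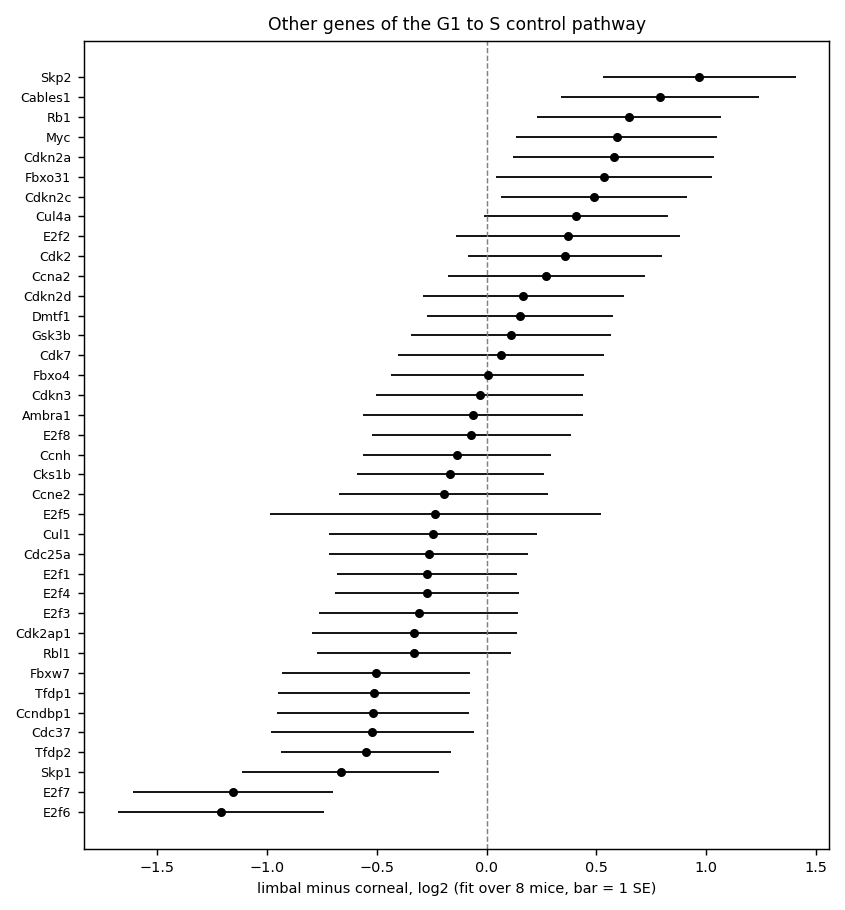
Limbal minus corneal log2 difference of the 38 tested genes of the G1 to S pathway list, fitted over 8 mice, with bars of 1 SE. The points run from -1.21 for E2f6 to 0.97 for Skp2, and no gene was called.

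Inputs and outputs of the G1 machinery were likewise without a call. Means above and below 0 are counted here for each list, beside a median of 0.01 over all genes. Of 9 tested genes of p53 and its targets 4 were higher and 5 lower, with a median of -0.02. Phlda3 differed by 1.07 ± 0.44 (adjusted p = 0.68), Mdm4, a p53 antagonist, by -0.97 ± 0.44 (adjusted p = 0.74) and Sesn1 by -0.45 ± 0.39 (adjusted p = 0.91). Of 14 tested genes of TGF-beta signalling and the Foxo, Klf4 and Zbtb17 regulators of the inhibitors, 10 were lower and 4 higher, with a median of -0.23. Smad2, a mediator of TGF-beta signals, was lower in 7 of 8 mice, by -1.08 ± 0.41 (adjusted p = 0.63), the receptor gene Tgfbr1 differed by -0.88 ± 0.44 (adjusted p = 0.78) and Smad3 by -0.58 ± 0.41 (adjusted p = 0.87). Of 13 genes of DNA replication and its control, which E2F activates, 8 were lower and 5 higher, with a median of -0.29. Mcm3 differed by -0.80 ± 0.43 (adjusted p = 0.80), Pcna by -0.75 ± 0.41 (adjusted p = 0.81) and Mcm5 by -0.64 ± 0.40 (adjusted p = 0.85), each lower in 6 of 8 mice.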

How the data were processed

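Per the labels' protocols, RNA of 300 laser-captured cells was amplified and labelled with biotin. The array was the Affymetrix Mouse430_2, per the file headers. The deposited intensity values were assumed to be linear and already scaled, as the trimmed means computed from the arrays all lay near 499.9. The algorithm is not given in the sources used here, and no detection calls were used. Scaling raises the background of dim arrays with everything else.

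Values were taken as log2(intensity + 89.4), the 25th percentile of all values. Probe sets with a mean above the 40th percentile were tested (27022). For each gene the tested probe set with the highest mean and 1 annotated symbol was used (34945 probe sets had 1 symbol, 932 several, 9160 were not listed). Limma 3.58.1 in R 4.3.3 was run with a fixed mouse effect, a variance trend and Benjamini-Hochberg adjustment over all tested probe sets, with a threshold of 0.05. Arrays were paired by the title number, since the series design gives 8 samples of each site from 8 mice. Deviations of the arrays of a mouse correlated above 0.1 in 7 of 8 mice (median 0.30, against 0.33 between mice of 1 scan day). Scan day comes from the array information. For most mice that information carries other codes than the titles. The titles were followed, and the pairs are the same either way. The fit was tested on simulated data.

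The genes named from the lists are those past the threshold or, where none passed, the 3 with the smallest p in each list. The members and lists were chosen with earlier results of these data known. Alternatives covered the mouse term (statmod 1.5.0), filter, constant, normalization, variance trend, array weights, scan days, averaging of probe sets and leaving out each mouse.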

Additional observations from a re-analysis of the deposited data

Results flagged for a closer look

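Of 27 sets of 8 values checked over the 9 tested genes (limbal, corneal and their difference), 4 held a value far from the others, where chance gives about 1 in 20. The difference of Ccnd2 in mouse 5 was 3.68, with the next highest at 1.09. That of Ccnd3 in mouse 4 was 3.09, with the next at 0.02. That of Cdkn1a in mouse 3 was -1.28, with the next lowest at 0.10. The log2 signal of Cdkn1b in the corneal array of mouse 5 was 7.39, with the next lowest at 9.41. All 4 values come from mice scanned on day 2, the day with the lowest correlation between arrays.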

How the results depend on the processing

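No G1 gene and no gene of the pathway list was called under any of the alternatives run. Ccnd1, Ccnd2 and Cdkn1a kept their sign in all 21 alternatives. Ccnd1 ranged from -1.96 to -0.16, with its lowest adjusted p, 0.094, under array weights, where its difference was -1.16. Single scan days turned the sign of Cdk4 (0.53) and Cdkn1b (0.14) on day 1, of Ccnd3 (0.38) and Cdkn2b (-0.65) on day 2, and of Cdk6 (-0.46), Ccne1 (0.020) and Cdkn1b (0.068) on day 3. Cdkn1b was at 0.10 without scan day 2, and Cdkn2b ranged from -0.10 without mouse 2 to 0.66 without mouse 4. The causes were not tested. Array weights took Ccnd2 from 0.76 to 0.20, Cdk6 from 0.96 to 0.23 and Cdkn1b from -0.61 to -0.06. Averaging probe sets took Cdk6 to 0.21, Cdk4 from -0.61 to -0.11 and Cdkn1b to -0.02. The median of the tested members was -0.20, and above 0 on day 1 alone (0.53), on day 3 alone (0.020), without scan day 2 (0.098) and with the filter at the 60th percentile (0.012). It ranged from -0.30 to -0.01 when each mouse was left out.

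The count of 18 called genes over the whole array moved to 0 with no replicate block, to 0 after quantile normalization, to 8 with the filter at the 60th percentile, to 11 with a constant of 16, to 83 with array weights and to 2 with averaged probe sets. It was 73, 0 and 0 on scan days 1, 2 and 3 alone. Leaving out a mouse gave 0 to 45, with 4, 0, 8, 4, 4 and 45 without mice 1, 2, 3, 6, 7 and 8. Without the block 0 members were called, as with it, and 0 members in place of 2 had an unadjusted p under 0.05. Over all 13570 tested genes 431 in place of 911 had such a p. Signal over background could not be set from these files, so dim probe sets such as those of Ccnd3 and Cdkn1c limit what can be said of them.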

Other observations

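Genes were ranked by likeness of their differences over the 8 mice to those of Cdk6 on 1435338_at alone. That probe set had the smallest p among the brightest ones of the members. The closest of 13569 genes were the splicing factor genes Prpf8 (Pearson r = 0.99) and Snrnp70 (0.98) and the Ras effector gene Rin1 (0.96). These are the highest of many correlations over 8 mice that share scan days, and they are given as a description.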
